A study of Mus musculus with 2 samples.

Results

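The genes described here are 10 members of 3 related groups: the receptor of the alarm cytokine IL-33 (Il1rl1), receptors for the Fc part of antibodies (the FcepsilonRI chains Fcer1a, Ms4a2 and Fcer1g, and the IgG receptors Fcgr2b and Fcgr3), and the MiT family of transcription factors (Mitf, Tfec, Tfe3 and Tfeb). Members were chosen by symbol, and each had a row in both gene tables, so that 10 of the 43346 genes measured and 63 of 103639 transcripts are covered. Their levels were known when they were chosen, so levels and transcript shares are given as a description with no test. RNA came from G1E cells, an immortalized line of male C57BL/6J mouse origin that the labels call an erythroid progenitor and mark Gata1-, with a stated age of 0 day and a postnatal stage. GATA1 is needed for red cell maturation. The series has 1 group with 2 libraries, labelled biological replicates 1 and 2, taken as separate biosamples of 1 donor. No treatment, no second line and no clone is named, so nothing can be compared between conditions and no gene has a second condition in which to vary.

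IL-33 is released by damaged tissue and binds ST2, the protein of Il1rl1, which signals with the co-receptor encoded by Il1rap. A second, soluble form of ST2 lacks the membrane anchor and acts as a decoy. The high-affinity IgE receptor of mast cells and basophils is built from an alpha chain that binds IgE (Fcer1a), a beta chain that amplifies the signal (Ms4a2) and a gamma chain with an activating ITAM motif (Fcer1g). The same gamma chain carries the activating IgG receptor encoded by Fcgr3, whereas the product of Fcgr2b inhibits. The MiT factors bind E-box sequences: Mitf acts in melanocytes and mast cells, Tfec is known from macrophages, and Tfe3 and Tfeb control lysosomal and autophagy genes.

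Promoters of members on both sides of the detection threshold are shown first, because the line is labelled as lacking a GATA factor. Each window runs from 250 bases before to 50 bases after a start that RefSeq annotates on GRCm38.p6. It is written 5′ to 3′ on the strand of the gene. Capitals mark a GATA motif, which is AGATAA or TGATAA or AGATAG or TGATAG on either strand. The first 2 are the distal (chr1:40429320-40429619, plus strand) and proximal (chr1:40439379-40439678, plus strand) starts of Il1rl1.
Il1rl1 distal: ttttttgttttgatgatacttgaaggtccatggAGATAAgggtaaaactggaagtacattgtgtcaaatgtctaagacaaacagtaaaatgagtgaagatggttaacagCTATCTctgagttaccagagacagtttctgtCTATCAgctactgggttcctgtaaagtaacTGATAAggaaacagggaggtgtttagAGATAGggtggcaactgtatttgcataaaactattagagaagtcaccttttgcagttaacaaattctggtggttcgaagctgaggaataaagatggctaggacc
Il1rl1 proximal: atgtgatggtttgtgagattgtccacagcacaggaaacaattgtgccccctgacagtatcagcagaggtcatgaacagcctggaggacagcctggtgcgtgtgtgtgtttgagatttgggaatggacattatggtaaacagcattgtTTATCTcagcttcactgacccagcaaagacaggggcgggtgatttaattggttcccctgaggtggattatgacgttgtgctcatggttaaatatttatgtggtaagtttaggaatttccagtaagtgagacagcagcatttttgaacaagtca
The next 3 are the FcepsilonRI chains in the order beta, alpha and gamma: Ms4a2 (chr19:11623670-11623969, minus strand), Fcer1a (chr1:173227180-173227479, minus strand) and Fcer1g (chr1:171234300-171234599, minus strand).
Ms4a2: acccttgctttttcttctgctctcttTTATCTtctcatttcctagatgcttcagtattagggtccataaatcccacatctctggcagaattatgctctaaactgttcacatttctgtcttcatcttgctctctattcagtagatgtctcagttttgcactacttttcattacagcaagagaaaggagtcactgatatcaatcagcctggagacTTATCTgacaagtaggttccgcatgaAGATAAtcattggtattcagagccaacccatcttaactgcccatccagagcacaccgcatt
Fcer1a: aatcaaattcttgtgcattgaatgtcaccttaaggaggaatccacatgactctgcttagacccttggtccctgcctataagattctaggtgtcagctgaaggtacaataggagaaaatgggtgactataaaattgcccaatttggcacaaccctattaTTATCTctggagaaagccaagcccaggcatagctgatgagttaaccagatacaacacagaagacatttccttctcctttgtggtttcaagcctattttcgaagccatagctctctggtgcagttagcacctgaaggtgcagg
Fcer1g: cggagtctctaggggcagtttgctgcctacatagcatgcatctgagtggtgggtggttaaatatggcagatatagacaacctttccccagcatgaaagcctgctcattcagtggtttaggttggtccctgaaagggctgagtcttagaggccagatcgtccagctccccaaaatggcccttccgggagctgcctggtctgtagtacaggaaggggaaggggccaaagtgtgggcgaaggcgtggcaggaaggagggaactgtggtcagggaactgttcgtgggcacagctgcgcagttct
The last 2 are Fcgr3 (chr1:171059354-171059653, minus strand), whose product needs the gamma chain, and the M start of Mitf (chr6:97991533-97991832, plus strand), the start of the melanocyte form.
Fcgr3: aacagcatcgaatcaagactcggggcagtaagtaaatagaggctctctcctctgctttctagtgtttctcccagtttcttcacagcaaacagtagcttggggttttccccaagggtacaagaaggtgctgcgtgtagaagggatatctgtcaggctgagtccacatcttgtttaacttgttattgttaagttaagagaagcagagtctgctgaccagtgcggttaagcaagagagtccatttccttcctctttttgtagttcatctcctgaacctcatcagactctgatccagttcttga
Mitf M: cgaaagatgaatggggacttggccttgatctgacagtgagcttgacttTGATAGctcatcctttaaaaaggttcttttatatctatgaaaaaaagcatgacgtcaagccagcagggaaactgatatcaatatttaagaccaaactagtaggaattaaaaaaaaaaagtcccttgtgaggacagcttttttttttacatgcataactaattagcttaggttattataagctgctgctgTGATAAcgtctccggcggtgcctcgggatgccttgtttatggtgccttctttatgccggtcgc

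The distal Il1rl1 window held 5 GATA matches, at -217, -141, -110, -80 and -54 bases from the start. Ms4a2 held 3, at -224, -37 and -11. The M window of Mitf held 2, the proximal Il1rl1 window and Fcer1a held 1 each, and Fcer1g and Fcgr3 held 0. Over all 32851 RefSeq windows of this length, 29.8% held at least 1 match, 1.76% at least 3, and 18 windows (0.0548%) at least 5. The GATA motif is mostly A and T. G and C made up 38.7% of the distal Il1rl1 window and 41% of the Ms4a2 window, against a median of 52.7% over all windows. Fcgr3, with 0 matches, had 45%. Shares among windows of like G and C content were not computed. Of the 17 windows of the 10 members, 9 held at least 1, and no 2 matches in them overlapped. The E-box CACGTG was in 0 of the 17 windows and in 7.15% of all windows. The related E-box CATGTG was in 1, that of Fcer1a, and in 14.2% of all windows. These matches describe the letters of the windows and do not show that a factor binds there.

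Il1rl1 and Fcgr3 were the most abundant members, and 6 of the 10 were detected, that is, reached 1 TPM in each library. TPM is a level divided by transcript length and scaled to a fixed library total, so genes can be compared. Over all genes 21% were detected, and 38.7% of the 21461 nuclear protein-coding genes were. The second share gives the scale for the counts of listed genes and markers further on. The 6 detected members were Il1rl1, Fcgr3, Fcgr2b, Ms4a2, Tfe3 and Tfeb. The 4 others were Fcer1g, Mitf, Fcer1a and Tfec. Nearest to the threshold were Tfeb above it, at 1.97 and 2.02 TPM in replicates 1 and 2, and Fcer1g below it, at 0.13 and 0.11 TPM. The median member level was 2.40 TPM, against 0.015 TPM over all genes and 0.055 TPM over nuclear protein-coding genes.

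**Figure D1:**
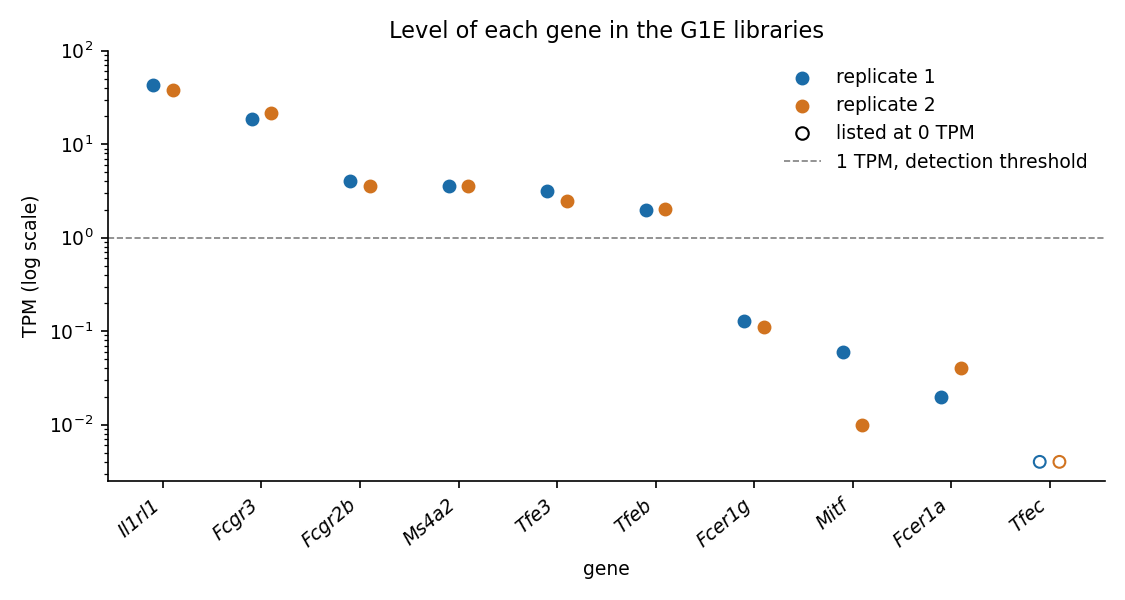
TPM (log axis) of the 10 genes in replicates 1 and 2, with the detection threshold of 1 TPM as a dashed line and open circles for genes listed at 0 TPM. Il1rl1 stands at 42.85 and 38.23 TPM, 6 genes lie above the line in both libraries, and Fcer1g, Mitf, Fcer1a and Tfec lie below it.

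Neighbours in the order of level were called apart where their log2(TPM + 1) differed, in both libraries, by more than 2 times the combined replicate SD of genes at those levels. Of the 9 neighbouring pairs, 3 were apart: Il1rl1 above Fcgr3, Fcgr3 above Fcgr2b, and Tfeb above Fcer1g. The order among Fcgr2b, Ms4a2, Tfe3 and Tfeb did not exceed the spread step by step. For Fcer1g, Mitf, Fcer1a and Tfec the rule could not decide. At or under 0.13 TPM, log2(TPM + 1) differs too little to pass the limit of 0.49. In order of level came Il1rl1, Fcgr3, 4 genes between 1.97 and 4.09 TPM, and 4 genes at or under 0.13 TPM. Only neighbours were compared, so genes within such a set, Fcgr2b and Tfeb for example, need not share 1 level.

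The libraries held 58094631 and 55274368 expected counts on genes. A two-sided exact binomial test of replicate 2 against replicate 1, adjusted by Benjamini-Hochberg over 18409 genes, called 14.7% of them at an adjusted p of at most 0.05 and at least 2-fold. Of the 8 members with enough counts to test, 0 were called. Adjusted p alone was at most 0.05 for 5 of the 8, as it was for 50.4% of all genes tested, and the largest of those 5 differences was that of Fcgr3, with a log2 ratio of 0.41. This test compares 2 libraries, knows counting error only and says nothing of conditions. Gata1 itself stood at 7.06 and 7.13 TPM despite the Gata1- label. The labels do not say how the gene was changed, and a gene total does not check that label.

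Marker genes of the labelled cell type were present. Of 14 erythroid progenitor markers, 13 were detected, with summed levels of 586.89 and 590.14 TPM, led by the alpha-globin gene Hba-a2 and the transferrin receptor Tfrc. Mast cell markers were present as well: 9 of 11 were detected, with sums of 304.05 and 272.79 TPM, led by the carboxypeptidase Cpa3 at 113.05 and 97.07 TPM and the stem cell factor receptor Kit at 96.93 and 80.04 TPM. The erythroid list also holds Kit. Of 7 basophil markers 2 were detected, Cd200r3 and Gzmb, with sums of 33.17 and 33.92 TPM, and the basophil protease Mcpt8 had 0 counts in both libraries. Cd200r3, at 27.15 and 27.66 TPM most of that sum, is on the mast cell marker list too, and Gzmb is on the list of mast cell genes controlled by MITF. Of the markers of eosinophils, of B cells and dendritic cells, of group 2 lymphoid and T helper cells, and of melanocytes, 0 of 7, 0 of 8, 0 of 8 and 0 of 6 were detected. Their summed levels in replicates 1 and 2 were 1.07 and 0.61 TPM, 0.32 and 0.16 TPM, 0.73 and 1.20 TPM, and 0.15 and 0.37 TPM, led by Il5ra and Siglecf, Cd74 and Flt3, Il13 and Cd4, and Pmel and Mlana. The lymphoid ligand Areg had 0 counts in both libraries. Of the macrophage and monocyte markers 1 of 10 was detected, Lyz2, at 1.34 and 1.33 TPM, with list sums of 3.09 and 2.63 TPM. Bulk RNA does not tell a few cells with much RNA from many cells with little, and whether the mast cell genes and the members lie in the same cells was not tested.

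Il1rl1 (ENSMUSG00000026069.11, chromosome 1, 40429570 to 40465415, plus strand, GRCm38) encodes ST2. It held 21503 and 18318 counts and stood at 42.85 and 38.23 TPM in replicates 1 and 2, a mean of 40.5 ± 3.27 TPM (SD, n = 2). Of all nuclear protein-coding genes 96.8% were lower. Kit, the highest receptor of the mast cell list, was 2.26 and 2.09 times as high.

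By the deposited estimates, Il1rl1 RNA was split almost evenly between membrane and soluble forms. The transcripts that encode the membrane receptor of 567 residues summed to 20.93 and 17.04 TPM in replicates 1 and 2. Those that encode the soluble form of 337 residues summed to 21.92 and 21.19 TPM. The membrane share was therefore 48.85% and 44.57% of the gene's TPM, a mean of 46.7 ± 3.03% (SD, n = 2). In these estimates membrane RNA was the lower of the 2 in both libraries. In expected counts the membrane share was 79.6% and 77.0%, because the membrane transcript is the longer: Il1rl1-201 has 5053 nt and the main soluble transcript, Il1rl1-205, has 1216 nt.

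Among the 5 annotated transcripts, 3 carried nearly all of the RNA. Il1rl1-201, the membrane form, had 20.84 and 16.92 TPM and led in replicate 1. Il1rl1-205, the soluble form with the distal first exon, had 19.13 TPM in both libraries and led in replicate 2. Il1rl1-203, a soluble form with a longer 3′ end that begins near the proximal start, had 2.79 and 2.06 TPM. The membrane form annotated from the proximal start, Il1rl1-202, had 0.09 and 0.12 TPM. The distal and proximal starts are those whose promoter windows are printed above, with 5 and 1 GATA matches.

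The annotation limits what these shares say about start sites and about the membrane and soluble forms. Il1rl1-201 begins at the shared second exon, 11058 bases after the distal start, and so belongs to neither start. Only 1 annotated transcript begins at the distal exon, and 0 of the membrane transcripts do. A membrane RNA from the distal start has no row of its own, so reads of its first exon could be counted for the soluble Il1rl1-205. Whether this raised the soluble share was not tested. The distal first exon, the part that only Il1rl1-205 has, is 61 nt long. At the 3′ end of Il1rl1-205, the last 48 nt are absent from the membrane forms and shared with Il1rl1-203, whose 3′ end is longer. The membrane transcript has 3946 nt in 3 exons that the soluble forms lack.

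**Figure D2:**
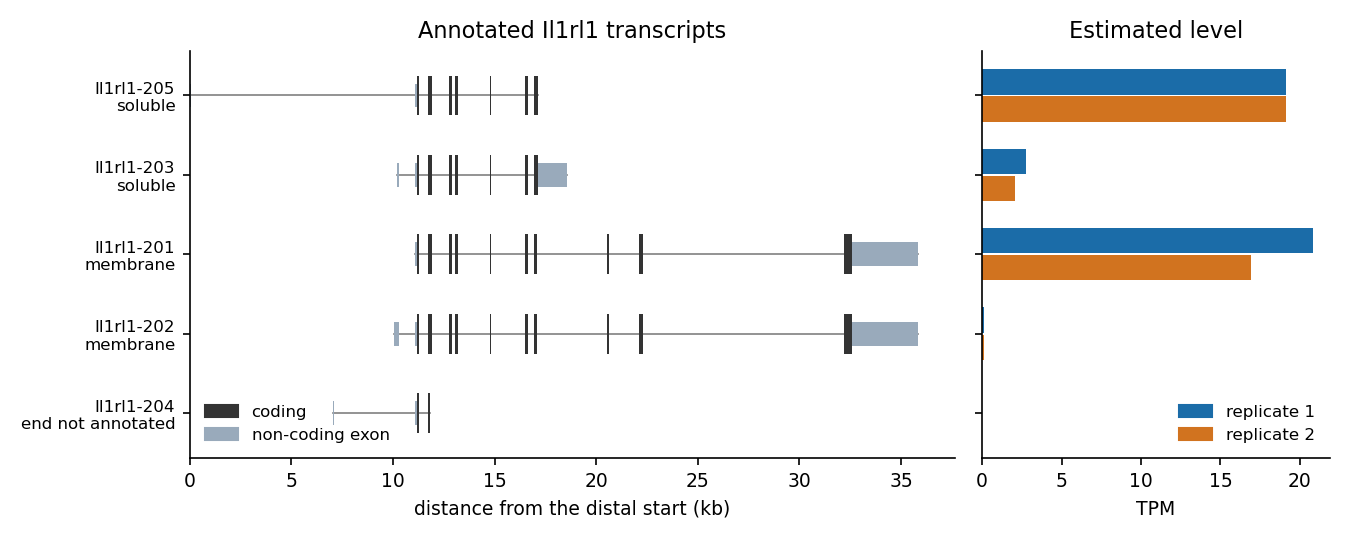
Left, exons of the 5 annotated Il1rl1 transcripts by distance from the distal start in kb, with coding parts in black. Right, TPM of each in replicates 1 and 2: Il1rl1-205 has 19.13 TPM in both libraries, Il1rl1-201 has 20.84 and 16.92, and Il1rl1-202 and Il1rl1-204 are at or near 0.

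The other receptors of the IL-1 receptor cluster on chromosome 1 were below the detection threshold. Il1r2, a decoy receptor for IL-1, and Il1r1, its signalling receptor, averaged 0.045 and 0.03 TPM. The IL-36 receptor gene Il1rl2 averaged 0.045 TPM. On the other side, the IL-18 receptor genes Il18r1 and Il18rap averaged 0.125 and 0.265 TPM. Il1rl1 was thus the only 1 of the 8 protein-coding genes from Map4k4 to Slc9a4 that was detected. These neighbours were taken by position, and those not on a list were named after their values were seen.

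In the list of the IL-1 receptor family and its ligands, which leaves Il1rl1 out, 2 of 14 genes were detected and the median was 0.045 TPM. The detected genes were the cytokine Il1b, at 2.27 and 1.94 TPM, and the co-receptor Il1rap, at 1.19 and 1.04 TPM. In gene totals, soluble form included, Il1rl1 stood 36.0 and 36.8 times above Il1rap, the partner that membrane ST2 needs to signal. The membrane transcripts alone summed to 20.93 and 17.04 TPM, so their excess over Il1rap was smaller. The next 2 genes of the list were Sigirr, an inhibitory receptor, at 0.81 and 0.72 TPM, and Il18rap. Il18 had 0 counts in both libraries. The ligand gene Il33, chosen after its values were seen, stood at 0.09 and 0.08 TPM.

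The signalling parts downstream of the IL-33 receptor were present. Of 20 genes 16 reached the threshold, against 38.7% of nuclear protein-coding genes, and the list median was 4.77 TPM. The 4 highest were the kinase genes Chuk, at 17.43 and 13.50 TPM, Mapk14, at 12.22 and 12.69 TPM, and Ikbkb, at 10.01 and 8.47 TPM, and the adaptor Tab2, at 13.84 and 11.92 TPM. The lowest was Irak3, a brake on the pathway, at 0.03 and 0 TPM. The adaptor Myd88, chosen after its values were seen, stood at 5.01 and 4.52 TPM.

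The 3 chains of the high-affinity IgE receptor were not expressed together: the beta chain was detected, and the alpha and gamma chains were not. Ms4a2 (ENSMUSG00000024680.8, chromosome 19, 11615523 to 11623719, minus strand) held 942 and 1003 counts and stood at 3.54 and 3.58 TPM, a mean of 3.56 ± 0.0283 TPM (SD, n = 2). Fcer1g (ENSMUSG00000058715.7, chromosome 1, 171229572 to 171234365, minus strand) held 10 and 9 counts, at 0.13 and 0.11 TPM. Fcer1a (ENSMUSG00000005339.6, chromosome 1, 173221284 to 173227214, minus strand) held 2 and 5 counts, at 0.02 and 0.04 TPM. Ms4a2 was 27.2 and 32.5 times as high as Fcer1g in replicates 1 and 2. In the promoter windows above, Ms4a2 has 3 GATA matches, Fcer1a has 1 and Fcer1g has 0.

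The RNA of Ms4a2 lay mostly in a transcript with a shortened reading frame. Ms4a2-204 encodes 125 residues, 110 fewer than the full-length form, and had 2.11 and 2.18 TPM, or 59.5% and 60.9% of the gene. The full-length Ms4a2-202, with 235 residues, had 0.99 and 0.91 TPM, or 28.04% and 25.43%. The 3′ end of Ms4a2-204 reaches 1670 nt beyond that of Ms4a2-202, so reads in this stretch count for the short form in the annotation. Ms4a2-205, with 202 residues, had 12.4% and 6.37%, and Ms4a2-201, with 198 residues, 0% and 6.36%. Of the other genes around it, Ms4a3 averaged 0.03 TPM and Ms4a6d 0.47 TPM, both named after their values were seen.

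The IgG receptor genes were both detected, the activating receptor above the inhibitory receptor. Fcgr3 (ENSMUSG00000059498.9, chromosome 1, 171051174 to 171064935, minus strand) held 3516 and 4185 counts and stood at 18.45 and 21.35 TPM, a mean of 19.9 ± 2.05 TPM (SD, n = 2). Fcgr2b (ENSMUSG00000026656.11, chromosome 1, 170958617 to 170976547, minus strand) held 869 and 813 counts and stood at 4.09 and 3.57 TPM, a mean of 3.83 ± 0.368 TPM. The ratio of Fcgr3 to Fcgr2b was 4.51 and 5.98. These genes share sequence over their antibody-binding parts. The posterior SD of the count, in which reads of uncertain origin appear, was 0.0375% and 0.0349% of the count for Fcgr3 and 0.152% and 0.180% for Fcgr2b.

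Fcgr3 thus stood 142 and 194 times above Fcer1g, the gamma chain that carries its product. Fcer1g held only 10 and 9 counts, so these ratios are rough. Its posterior mean TPM was higher than its TPM, at 0.20 and 0.17. In the list of ITAM adaptors and chains 1 of 8 genes was detected, with a list median of 0.0275 TPM. That gene was Tyrobp, encoding the ITAM adaptor DAP12, at 17.09 and 17.49 TPM. Next came Hcst, an adaptor without an ITAM, at 0.34 and 0.48 TPM, the T cell receptor chain Cd247, at 0.26 and 0.18 TPM, and Cd3g of the same receptor, at 0.04 and 0.05 TPM. Cd79b, a B cell receptor chain, was the lowest and was listed at 0 TPM. Whether DAP12 serves any member receptor in these cells is not measured here.

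Fcgr2b RNA was mostly the form without the cytoplasmic insert. The transcript that skips the 141-nt insert of 47 codons, Fcgr2b-202, encodes 293 residues, the IIb2 form. It had 2.37 and 2.62 TPM, or 57.9% and 73.5% of the gene. The 2 transcripts with the whole insert, the IIb1 form of 340 residues, summed to 0.31 and 0.11 TPM, or 7.54% and 3.17%. Fcgr2b-203, with part of the insert, had 6.24% and 0%. The 3 noncoding transcripts took 28.4% and 23.3%, with Fcgr2b-206 at 11.8% and 10.2%, Fcgr2b-205 at 8.14% and 11.2%, and Fcgr2b-207 at 8.46% and 1.95%. The form without the insert led in both libraries. Fcgr3 was simpler, with Fcgr3-201, of 267 residues, at 80.9% and 82.3% and Fcgr3-204, of 266 residues, at 17.5% and 15.6%.

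**Figure D3:**
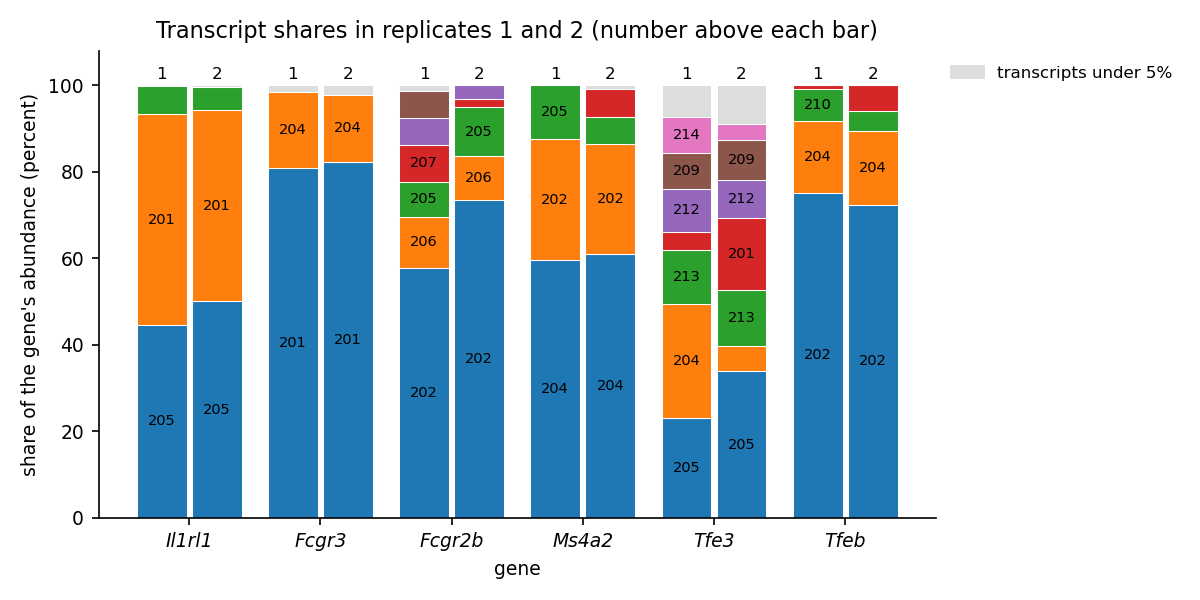
Share of each gene's abundance (percent) by transcript for the 6 detected genes, with replicate 1 at left and replicate 2 at right and the last digits of the transcript name in the larger blocks. Fcgr3, Fcgr2b, Ms4a2 and Tfeb kept the same leading transcript, whereas for Il1rl1 (201 and 205) and Tfe3 (204 and 205) it differed between libraries.

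Fcgr3 and Fcgr2b stood out from the other receptor genes beside them. Fcgr4, which lies between them on chromosome 1, averaged 0.03 TPM, and the Fc receptor-like genes Fcrla and Fcrlb averaged 0.04 and 0.01 TPM. Fcer1g lies in the same region, and Sdhc, a gene of respiratory complex II between it and Fcgr3, stood at 7.49 and 7.94 TPM and was chosen after its values were seen. Fcer1a lies among olfactory receptor genes, of which Olfr418 was the highest, at 0.055 TPM. In the list of other Fc receptors 1 of 13 genes was detected, and the median was 0.01 TPM. It was Trim21, a cytosolic antibody receptor, at 2.36 and 2.23 TPM. Fcrla, Fcrl1 and Fcmr followed, each at or under 0.07 TPM in both libraries, and the neonatal receptor gene Fcgrt was the lowest, listed at 0 TPM.

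**Figure D4:**
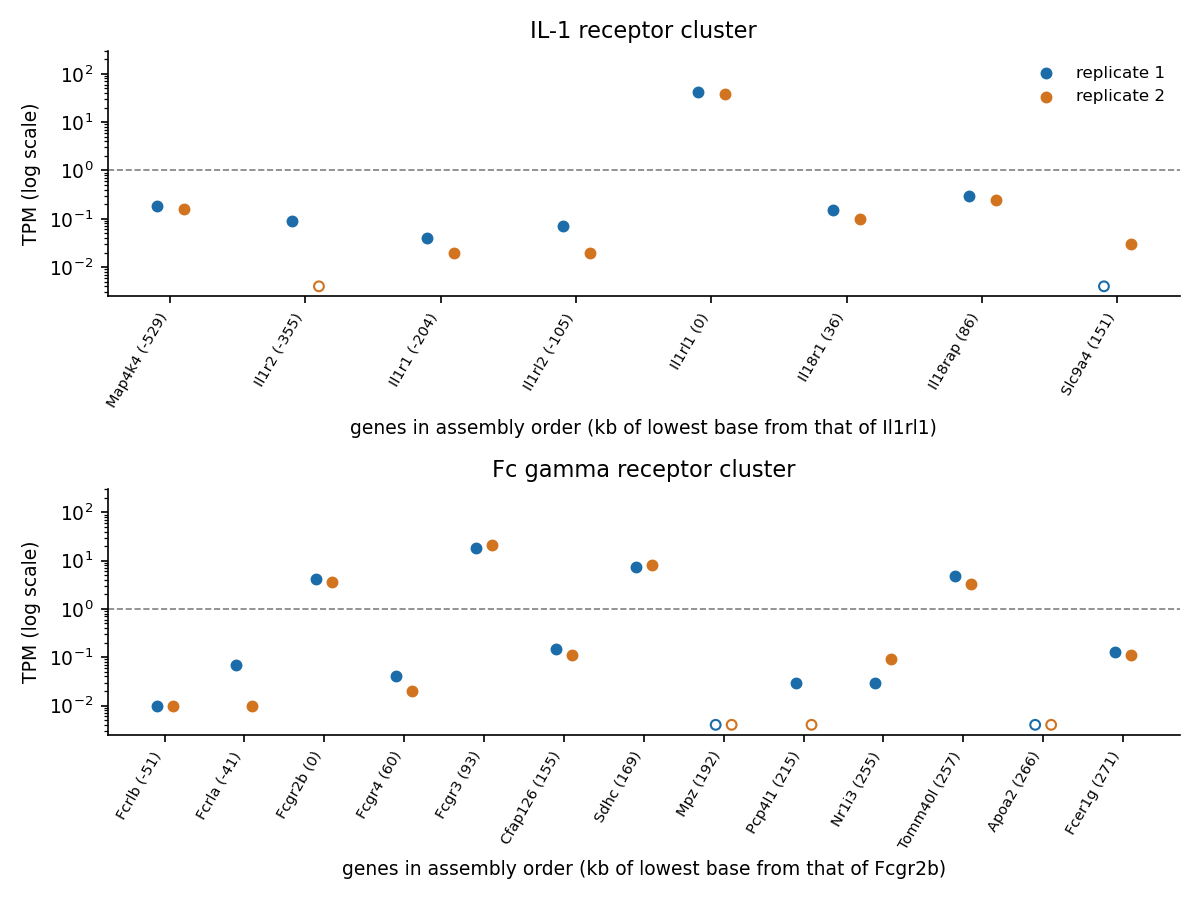
TPM (log axis) of genes in assembly order in the IL-1 receptor cluster (top) and the Fc gamma receptor cluster (bottom) in replicates 1 and 2, with kb from Il1rl1 or Fcgr2b in brackets, open circles for 0 TPM and the threshold of 1 TPM dashed. Il1rl1 is the 1 gene above the line in the top panel, and in the bottom panel Fcgr4 lies below it between Fcgr2b and Fcgr3, and Fcer1g, the last gene shown, lies below it as well.

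The next list holds receptors that pair with the gamma chain and activating or inhibitory receptors of the same cells. Of 12 measured genes 5 passed the threshold, and the median was 0.268 TPM. Cd200r3, an activating receptor of mast cells and basophils that is known to use DAP12, led at 27.15 and 27.66 TPM. The C-type lectin receptors Clec4e and Clec4d stood at 2.52 and 2.58 TPM and at 1.68 and 1.88 TPM. Pirb, an inhibitory receptor, stood at 1.43 and 1.54 TPM, and Siglece was the lowest, at 0.01 and 0 TPM. The fifth detected gene, Cd200r1, lay at the threshold, at 1 and 1.04 TPM, and was chosen after its values were seen.

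Of the genes listed for FcepsilonRI signalling, 24 of 34 passed the threshold, against 38.7% of nuclear protein-coding genes. The list median was 3.77 TPM. The list also holds Ms4a1 and Ms4a3 of the Ms4a family, both undetected and named after their values were seen. The phosphatase genes Ptpn6, at 65.43 and 53.58 TPM, and Inpp5d, at 44.34 and 37.31 TPM, were the highest, and both encode brakes on Fc receptor signalling. The exchange factor Vav1, at 32.42 and 30.79 TPM, and the kinase Prkcd, at 25.97 and 21.96 TPM, followed. The lowest was Plcg2, with 1 count in each library. Its relative Plcg1 stood at 5.82 and 6.76 TPM. The kinase Syk, which binds phosphorylated ITAMs, held 21 and 8 counts, at 0.04 and 0.01 TPM, whereas the Src-family kinases Lyn and Fyn stood at 11.79 and 10.33 TPM and at 23.41 and 21.76 TPM. Plcg1, Syk, Lyn and Fyn were chosen after their values were seen.

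Among the MiT factors, Tfe3 and Tfeb were detected, and Mitf and Tfec were not. Tfe3 (ENSMUSG00000000134.13, chromosome X, 7762560 to 7775202, plus strand) held 1200 and 959 counts and stood at 3.15 and 2.45 TPM, a mean of 2.80 ± 0.495 TPM (SD, n = 2). Tfeb (ENSMUSG00000023990.14, chromosome 17, 47737030 to 47792419, plus strand) held 665 and 706 counts and stood at 1.97 and 2.02 TPM, a mean of 2.00 ± 0.0354 TPM. The ratio of Tfe3 to Tfeb was 1.60 and 1.21, within the replicate spread for genes at this level. The deposited TPM of Tfeb lay below the authors' interval for it, which ran from 2.08 to 2.69 TPM in replicate 1 and from 2.11 to 2.67 TPM in replicate 2. Its posterior mean TPM was 2.37 and 2.38.

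Mitf (ENSMUSG00000035158.11, chromosome 6, 97807052 to 98021349, plus strand) held 17 and 7 counts, at 0.06 and 0.01 TPM. Its reads lay on transcripts from the upstream starts. The 2 transcripts of the M start, 184734 bases after the first start, had 0 counts in both libraries, where a count of 0 allows up to 3 counts. The reads of replicate 1 were put on Mitf-204 (11.58 counts) and Mitf-206 (5.42 counts), and those of replicate 2 on Mitf-202 (7 counts), so shares within this gene rest on very few reads. Tfec (ENSMUSG00000029553.7, chromosome 6, 16833373 to 16898441, minus strand) had 0 counts in both libraries, which allows a level of up to 0.0113 TPM in replicate 1 and 0.0111 TPM in replicate 2, counting error only.

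Tfe3 RNA was spread over more transcripts than Tfeb RNA. Of 14 Tfe3 transcripts 7 reached 5% in a library, and the leader was Tfe3-204 in replicate 1, at 26.4%, and Tfe3-205 in replicate 2, at 33.9%. Tfe3-204 had 0.83 and 0.14 TPM, and Tfe3-205 had 0.73 and 0.83 TPM. The downstream starts took 63.6% and 49.9%, and the upstream starts 36.4% and 50.1%. Tfe3-201, which encodes 572 residues, had 4.25% and 16.8%, while Tfe3-204 and Tfe3-205 encode 467 and 432. The other 4 were the retained-intron forms Tfe3-213, at 12.4% and 12.9%, and Tfe3-212, at 9.93% and 8.77%, the noncoding Tfe3-209, at 8.27% and 9.07%, and the short Tfe3-214, at 8.28% and 3.86%. For Tfeb, Tfeb-202 from the most upstream start had 75.1% and 72.4%, and Tfeb-204 had 16.6% and 17.2%. Both encode 475 residues, so their starts differ and the length of their protein does not. Tfeb-210, a retained-intron form, and Tfeb-203, of 267 residues, had at most 7.31% and 6.02%. In posterior means the share of Tfeb-202 was lower, at 60.2% and 58.7% in replicates 1 and 2.

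Genes that hold MiT factors at the lysosome, or release them, were present almost throughout: 21 of 22 passed the threshold. Of nuclear protein-coding genes 38.7% did. The list median was 9.92 TPM. Ywhaz, a 14-3-3 protein that binds phosphorylated factors in the cytoplasm, stood at 76.65 and 67.73 TPM. The nuclear export receptor Xpo1 stood at 61.65 and 48.63 TPM, and the Ragulator genes Lamtor3 and Lamtor1 at 26.72 and 29.33 TPM and at 26.13 and 24.47 TPM. The undetected gene was the Rag GTPase Rragb, at 0.05 and 0 TPM.

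Genes that MiT factors are known to control were listed by tissue. For scale, 38.7% of nuclear protein-coding genes passed the threshold. Of 27 lysosome and autophagy genes controlled by TFEB, 23 passed the threshold, and the list median was 7.54 TPM. The protease Ctsd led at 236.19 and 255.06 TPM, followed by the autophagy receptor Sqstm1 at 127.42 and 115.48 TPM, Lamp1 at 82.72 and 93.96 TPM and the proton pump subunit Atp6v1h at 44.62 and 39.42 TPM. Ctsf had 0 counts in both libraries. Of 16 mast cell genes controlled by MITF, 9 passed the threshold, and the list median was 2.55 TPM. Cpa3 and Kit led, with the values given above. Tph1, the first enzyme of serotonin synthesis, had 72.66 and 68.32 TPM and the chymase Cma1 had 36.06 and 36.36 TPM. The lowest was Bcl2a1b, which shares reads with near copies, at 0 and 0.01 TPM.

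Of 12 melanocyte genes controlled by MITF 1 was detected, Rab27a, a GTPase of granule transport, at 9.34 and 8.81 TPM. Slc24a5 stood at 0.40 TPM in both libraries, Pmel at 0.10 and 0.16 TPM and Trpm1 at 0.08 and 0.11 TPM, and Gpr143 had 0 counts. Of 9 osteoclast genes controlled by MiT factors 3 were detected: Ostm1 at 11.21 and 10.15 TPM, the chloride transporter Clcn7 at 3.08 and 3.21 TPM, and the phosphatase Acp5 at 1.69 and 2.01 TPM. The fourth was Mmp9, at 0.16 and 0.13 TPM, and Ocstamp was the lowest, at 0.01 and 0 TPM. Detected members of both lists also act in lysosomes or granules of other cells.

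Factors known to regulate the receptor genes and Mitf were mostly present: 18 of 23 passed the threshold, against 38.7% of nuclear protein-coding genes. The list median was 8.53 TPM. Myb, of immature blood cells, stood at 47.27 and 42.98 TPM. Tal1 and its partner Lmo2, which join GATA factors on DNA, stood at 28.75 and 28.83 TPM and at 22.09 and 21.63 TPM, and Elf1 at 24.66 and 21.03 TPM. Gata2, the GATA factor of progenitors and mast cells, stood at 21.11 and 16.05 TPM and was chosen after its values were seen. The lowest was Cebpa, a myeloid factor, with 2 counts in replicate 1 and 1 in replicate 2. Among factors that act on Mitf in melanocytes, Pax3 was detected, at 2.10 and 1.48 TPM, and Sox10 had 4 and 0 counts. The list also holds Creb1, at 14.98 and 12.71 TPM, and Lef1, with 9 and 2 counts. Pax3, Sox10, Creb1 and Lef1 were all chosen after their values were seen.

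**Figure D5:**
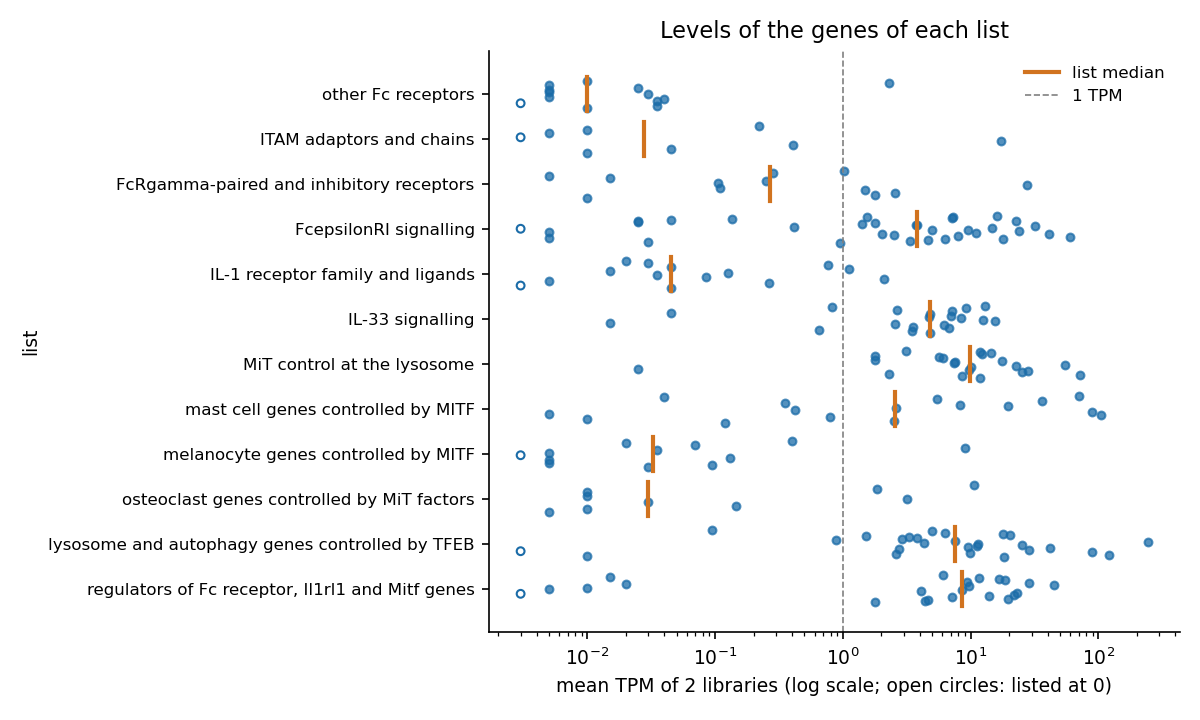
Mean TPM of the 2 libraries (log axis) for each gene of the 12 lists, with the list median as an orange bar, 1 TPM dashed and open circles for genes listed at 0. The lists of lysosomal control, lysosome genes, regulators, mast cell genes and both kinds of signalling have medians above the line, from 2.55 to 9.92 TPM, and the lists of other Fc receptors, ITAM chains, melanocyte genes and osteoclast genes have medians under 0.04 TPM.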

How the data were processed

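The 2 libraries of 1 group were made from total RNA after removal of ribosomal RNA, with 100 ng of RNA and a size range of 200 to 1000 nt, per the labels. The authors deposited gene and transcript tables per library, made on mm10 with GENCODE release M4, per the deposited read-me texts. The sources used here do not name the aligner, the quantifier, the strand used in counting or the level of the TPM interval. Reads of overlapping genes on opposite strands therefore cannot be told apart.

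The deposited expected counts are the authors' estimated reads per gene, with shared reads divided, and need not be whole. The deposited TPM and FPKM divide them by effective length, and TPM is scaled to a fixed total per library. The deposited IsoPct is a percent, the transcript's share of the gene. The deposited posterior standard deviation of the count was used as a score of shared reads, per the file headers. TPM was also rescaled so that nuclear protein-coding genes alone fill its total.

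Of 69691 gene rows, 26248 rows with numeric names (20 and 37.61 counts) and 97 spike-in rows (0 counts) were left out. GENCODE M21 on the same assembly gave names and coordinates for 42462 of 43346 genes and 62 of 63 member transcripts, 61 of them of equal length. The 10 members matched 17 RefSeq promoter windows.

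Detection required 1 TPM or more in each library. The replicate SD was pooled over detected genes of log2(TPM + 1) in TPM bins, and was 0.17 from 1 to 10 TPM and 0.24 from 10 to 100 TPM. Libraries were compared with an exact binomial test of rounded expected counts given TMM sizes (edgeR 4.0.16), over genes with at least 10 counts. The test was checked on data simulated with counting error only. That check does not cover spread between libraries beyond counting error. DESeq2 1.42.0 gave other size factors. Python 3.11.15 with pandas 2.3.3 and scipy 1.17.1 did the rest.

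Members and lists were chosen with earlier results of these data known. Named are all members, their transcripts with a share of at least 5% in either library, the 4 highest genes and the lowest of each list, the 2 highest of each marker list, and defining markers at 0. The list gene Lilrb4a had no matched row and is not analysed here, and some genes are not reported here. Depth is that of the expected counts, and a count of 0 allows up to 3 counts.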

Additional observations from a re-analysis of the deposited data

How the results depend on the processing

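Rescaling TPM to nuclear protein-coding genes moved the median member from 2.40 to 13.7 TPM, and the posterior mean moved it to 2.63. Raising the detection threshold to 5 TPM left 2 of 6 members and 78 of 123 list genes, whereas 0.5 TPM, rescaled TPM, the posterior mean and FPKM each left 6 members. Rescaled TPM raised list genes detected from 123 to 138. Among them, ITAM chains rose from 1 to 3, the IL-1 receptor family from 2 to 4 and melanocyte genes from 1 to 2. Of the markers, those of eosinophils rose from 0 to 2, of macrophages and monocytes from 1 to 3, and of group 2 lymphoid and T helper cells from 0 to 1. Requiring 50 counts lowered the genes called between libraries from 2706 to 539, with fewer genes tested, and 0 members were called in any of the 4 alternative settings. The membrane share of Il1rl1 was 46.6% in posterior means and 78.3% in expected counts, not divided by length, where membrane RNA became the larger form. With either library left out the TPM share ran from 44.57% to 48.85%, the median member from 2.235 to 2.56 TPM, and list genes detected from 123 to 124. The counts of members detected and of pairs apart were then 6 and 3, but without replicate 1 Ms4a2 replaced Fcgr2b as the gene next below Fcgr3. Pairs apart were 2 when the pooled SD took all genes with a count, since Il1rl1 and Fcgr3 were then not apart. No paired analysis was possible because there is 1 group. With 2 libraries, an SD is itself uncertain, and genes at a few counts (Fcer1a, Mitf, Fcer1g) have no reliable order.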

Other observations

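Retained-intron transcripts took 28.2% and 28.1% of Tfe3 in replicates 1 and 2, more than in 78.1% of the 3682 genes with such a transcript, whose median was 11.98%. In Fcgr2b they took 16.6% and 13.1%, in Tfeb 7.31% and 4.43%, and in Fcgr3 1.52% and 2.14%.

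Genes annotated inside or across the members held few reads. Gm38204, an antisense gene across the start of Fcgr2b, had 2 and 0 counts, and Mir6546 in Fcgr3 and the pseudogene Gm15531 in Mitf had 0.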
